A study of Mus musculus with 2 samples.

Results

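The Mir297, Mir466, Mir467 and Mir669 genes are repeated microRNA hairpins, most of which sit in an intron of the mouse gene Sfmbt2. They were chosen by symbol alone: every gene of the deposited counts whose GENCODE M21 symbol is Mir297, Mir466, Mir467 or Mir669, alone or with a letter or number suffix. The rule found 81 of 2202 microRNA genes. The study is microRNA-seq, the sequencing of short RNA, of hippocampus (labelled a layer of it) in male mice of strain B6CASTF1/J, 36 days old. Such mice are F1 offspring of C57BL/6J and CAST/EiJ parents, and the labels name no transgene and no treatment. There are 2 libraries in 1 group, labelled biological replicates 1 and 2, from separate tissue samples under 1 shared donor label. No second condition exists, so the comparisons below are among the genes and between the 2 libraries.

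MicroRNA genes are transcribed as longer precursors that fold into hairpins, from which short mature strands are cut. Bases 2 to 8 of a mature strand, its seed, pair with target messenger RNAs. The Sfmbt2 cluster arose in rodents by repeated duplication of a small group of hairpins, and it is known as an imprinted cluster, transcribed with Sfmbt2 from the paternal chromosome in placenta and other extraembryonic tissue. Sfmbt2 itself encodes a Polycomb group protein that is needed for the placenta. Which parental allele gave the reads cannot be told from counts per gene.

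Mature sequences at hand show the repeat character of these genes. RefSeq mature sequences on GRCm38.p6, the assembly that mm10 also names, were matched for 8 members, all of them outside Sfmbt2. They are shown 5′ to 3′ with the seed in capitals, because the same runs of alternating U and G, or A and C, recur through the Sfmbt2 hairpins:
miR-466q: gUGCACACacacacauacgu
miR-466k: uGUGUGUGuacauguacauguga
miR-669n: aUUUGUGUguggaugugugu
miR-467g: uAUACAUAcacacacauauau
miR-467h: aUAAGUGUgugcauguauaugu
miR-466j: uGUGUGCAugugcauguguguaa
miR-467f: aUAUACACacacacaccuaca
miR-466i-3p: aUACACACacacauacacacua

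The 8 seeds are all different, so no seed family can be formed from these 8 strands. As plain letters on the strand of the gene, overlapping matches included, several of the seeds recur in most member hairpins. AUACAUA, the seed of miR-467g, lies in 63 of the 81 member hairpins (77.8%) and in 143 of all 2202 (6.49%). GUGUGUG, the seed of miR-466k, lies in 52 (64.2%) and 210 (9.54%). UACACAC, the seed of miR-466i-3p, lies in 49 (60.5%) and 180 (8.17%), and in each of the 8 members with at least 10 counts in each library. GUGUGCA, the seed of miR-466j, lies in 45 (55.6%) and 106 (4.81%). The other seeds are less common, down to UAAGUGU of miR-467h in 2 members. A match of letters in a hairpin is not a processed mature strand.

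The repeat character extends over the whole hairpins. The dinucleotides TG, GT, CA and AC made up a median of 51.2% of a member hairpin, against 26.7% over the 2121 other genes, with members ranging from 32.5% to 76%. The median GC content was 36.5% in members and 51.4% in the others. Hairpin lengths ran from 54 to 127 bases, with a median of 88. A stretch of 20 bases was shared with at least 1 other, non-overlapping microRNA gene by 79 of the 81 members, against 47.0% of the other genes. The 2 members without such a stretch were Mir466g and Mir669n. Members had a median of 18 such partner genes.

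The position of the members was compared with the Sfmbt2 gene, which lies on chromosome 2 at 10370510 to 10595253 (mm10, plus strand). Of the 81 members, 71 lie inside it on its own strand and 0 on the opposite strand. All 71 fall in a single intron of 62472 bases (10461473 to 10523944), which is intron 10 or intron 11 in the 2 annotated transcripts of 23 exons that span it. They occupy 51.6 kb of it, with a median of 298.5 bases from 1 start to the next. The other 10 members lie on 7 other chromosomes: Mir466q, Mir466k and Mir669n on chromosome 3, Mir466i and Mir466f-4 on chromosome 13, and Mir467g, Mir297-1, Mir467h, Mir466j and Mir467f on chromosomes 5, 7, 9, 10 and 11. Mir466q lies in an intron of Tnik, a kinase gene, and no other of these 10 has a host gene on its strand.

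The libraries held 4404040 and 5279877 own-strand counts. Levels are in CPM, counts per 1000000 of these. Where a gene has no count, its level may be as high as 0.681 CPM in replicate 1 or 0.568 in replicate 2, the worth of 3 counts. Reads that match several places, 40.3% and 46.5% of all reads, enter no gene's count. The limit of 3 counts therefore holds only for reads that match 1 place. It sets no bound on genes whose sequence is shared with other places. Of the marker lists, the neuronal one summed to 35976 and 38822 CPM, with Mir132 and Mir128-1 highest. Between replicates 1 and 2, Mir132 went down (104971 and 91085 counts) and Mir128-1 went up (23956 and 63088). The Mir124a genes of that list had few counts: Mir124a-1 had 11 and 8, Mir124a-2 1 and 1, and Mir124a-3 0 in both. Of the 8 genes of that list, 7 share a stretch of 20 bases with another microRNA gene. Reads that match several places are missing from these counts, so few counts here do not show a low level of miR-124. The oligodendrocyte list summed to 5809 and 5649 CPM. The list of pluripotent and trophoblast microRNAs, which include the Mir290a and Mir302 clusters, had 5 and 10 counts in all, with 6 of its 11 genes at 0 in both libraries, Mir290a and Mir295 among them. These limits and all intervals below account for the counting error of reads alone. The reads carry no molecular identifiers and PCR copies are not separate molecules, so the error for molecules may be larger.

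Most of the members had no count at all. A count in either library was present for 14 of 81 members, where 35.3% of all 2202 genes had one, and 67 members had 0 in both. At least 10 counts in each library were seen for 8 of the 81 (9.88%), against 18.7% of all genes. Together the members held 7724 counts in replicate 1 and 7526 in replicate 2. These were 0.175% (95% Wilson interval 0.172 to 0.179) and 0.143% (0.139 to 0.146) of the counts, or 1590 ± 232 CPM (SD, n = 2). All of these counts but 1 came from members inside Sfmbt2, the exception being a single count of Mir466q in replicate 2. No member had a count on the opposite strand, and in both libraries the either-strand count equalled the own-strand count for all 81.

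The family names divided the counts unevenly. The 17 Mir467 genes summed to 999 and 1060 CPM, from 3 genes with counts. The 30 Mir669 genes summed to 752 and 364 CPM, from 6 genes with counts. The 28 Mir466 genes, nearly as many, had 9 and 6 counts in all, and the 6 Mir297 genes had 1 and 1, both of Mir297a-2. These sums leave out reads that match several places.

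**Figure D1:**
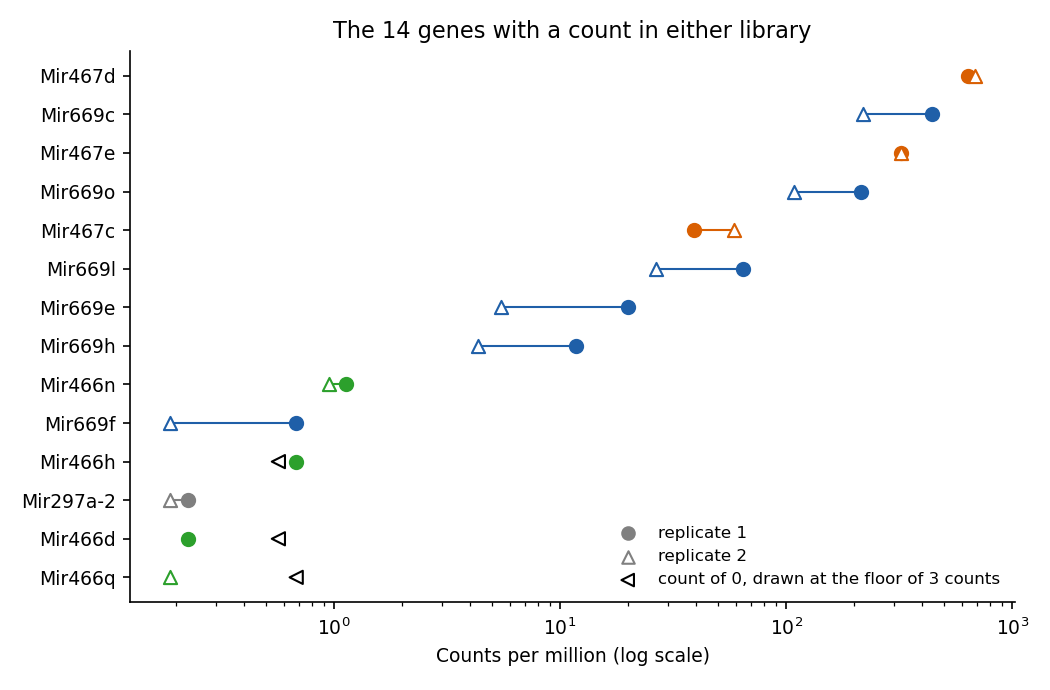
CPM in each library (log axis) for the 14 members with a count, highest mean at the top; filled circles are replicate 1, open triangles replicate 2, and black triangles mark a count of 0 drawn at the floor of 3 counts. The upper 4 genes hold over 90% of the member counts, and for the Mir669 genes replicate 2 lies to the left of replicate 1.

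Mir467d (ENSMUSG00000077021.2, chromosome 2, 10507630 to 10507714) was the highest member, with 2808 counts in replicate 1 and 3595 in replicate 2. That is 638 and 681 CPM, a mean of 659 ± 30.6 (SD, n = 2, as for all means below), and it ranked 117 of 2202 genes. It made up 36.4% (95% Wilson interval 35.3 to 37.4) and 47.8% (46.6 to 48.9) of the member counts. It stood above every other member in both libraries, in counts of reads that match 1 place. The order of members here and below is an order of such counts, not of levels in the tissue.

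Mir669c (ENSMUSG00000076118.1, 10509296 to 10509404) followed with 1942 and 1155 counts, or 441 and 219 CPM. Mir467e (ENSMUSG00000076948.2, 10505721 to 10505807) had 1420 and 1693 counts, or 322 and 321 CPM. The order of these 2 genes differs by library: Mir467e had 0.731 times the counts of Mir669c in replicate 1 (95% exact interval 0.682 to 0.783) and 1.47 times in replicate 2 (1.36 to 1.58). Their means of 322 ± 1.26 and 330 ± 157 CPM do not differ beyond the spread. Mir669o (ENSMUSG00000077086.1, 10514300 to 10514395) had 946 and 573 counts, or 215 and 109 CPM. The 4 genes named so far held 92.1% of the member counts in replicate 1 and 93.2% in replicate 2.

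The next 4 members were lower. Mir467c (10473931 to 10474027) had 172 and 310 counts, or 39.1 and 58.7 CPM. Mir669l (10468971 to 10469068) had 283 and 140, or 64.3 and 26.5 CPM, so its order against Mir467c turns between the libraries. Mir669e (10467495 to 10467613) had 88 and 29 counts. Mir669h (10518155 to 10518279) had 52 and 23. Means of 12.7 ± 10.2 CPM for Mir669e and 8.08 ± 5.27 for Mir669h overlap in their spread, although Mir669e was the higher in both libraries.

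At trace level, Mir466n had 5 and 5 counts. Mir669f had 3 and 1, Mir466h 3 and 0, Mir297a-2 1 and 1, Mir466d 1 and 0 and Mir466q 0 and 1. These 6 lie near the floor and have no order that the depth can show.

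Along the intron, the counted members lay at the ends of the cluster. The first 13 members, from the Sfmbt2 start side up to Mir467c, had 547 and 481 counts, from 5 genes. The next 38 members in order, from Mir466b-1 to Mir669a-12, had 0 counts in both libraries. The last 20 members, from Mir467e on, had 7177 and 7044 counts, from 8 genes, which is 92.9% and 93.6% of the member counts. The empty stretch between Mir467c and Mir467e is 31.7 kb long. Within it the starts of neighbouring genes from Mir467a-2 to Mir467a-10 lie a median of 2463 bases apart (8 distances, 2413 to 4880). These ends were chosen after the counts were seen, and the split is a description.

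**Figure D2:**
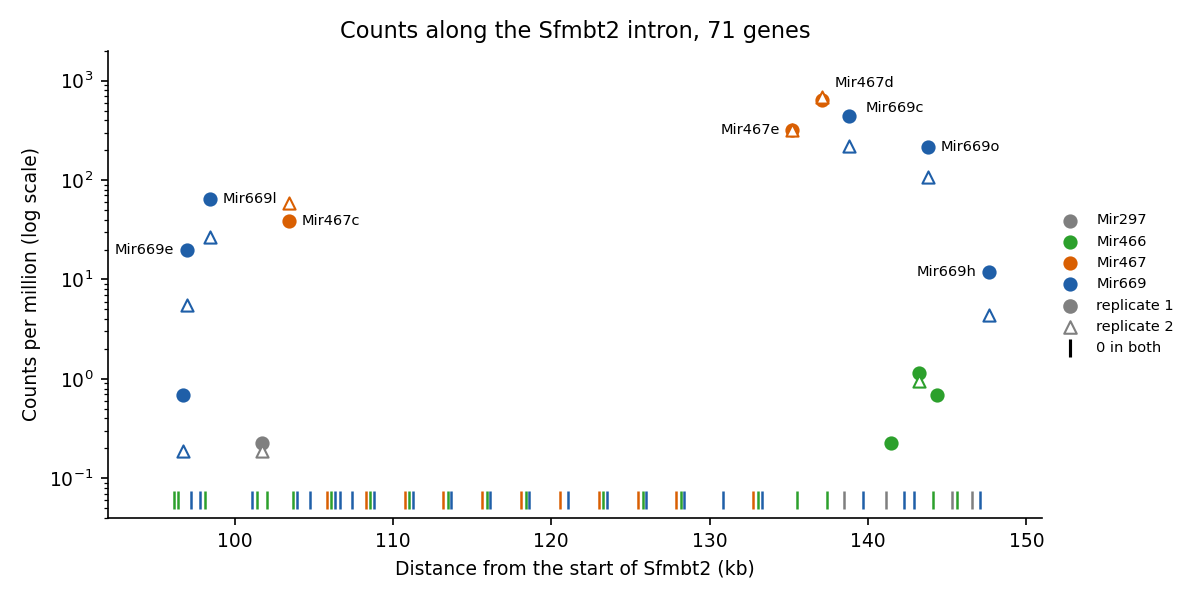
CPM (log axis) of the 71 members inside Sfmbt2 against their distance from the start of the gene in kb; filled circles are replicate 1, open triangles replicate 2, colours are the 4 symbol families, and ticks at the bottom are members with 0 counts in both libraries. A gene with a count in only 1 library has only that mark. The 38 members between Mir467c and Mir467e are all ticks.

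The same stretch held the hairpins that are least distinct. For each hairpin, every window of 22 bases, about the length of a mature strand, was looked up on both strands of all 2202 annotated hairpins. No window was unique in 32 of the 81 members, and these 32 had 0 counts in both libraries. Of them, 31 lie between Mir467c and Mir467e, and the other is Mir669a-2. In 26 members the whole hairpin was identical to that of another gene. Mir669a-4 to Mir669a-12, which are 9 genes, have 1 hairpin sequence among them, and 6 Mir467a genes share theirs with a gene that has no Mir symbol. Among genes that are not members, 261 of the 265 without a unique window also had 0 counts in both libraries. Only 17 of these 265 have a Mir symbol, and all 17 had 0. Further copies in the genome and differences of the CAST/EiJ sequence from mm10 were not looked for. The part of shared sequence in the zeros was not tested.

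A unique window did not go with a count in every case. Of the 49 members with at least 1 unique window, 14 had a count and 35 did not. For the 8 members with at least 10 counts in each library, the share of unique windows ran from 39.1% (Mir467d, the highest gene) to 96.9% (Mir669e), with a median of 61.1%. It was 83.0% for Mir669c, 59.1% for Mir467e and 58.7% for Mir669o. At 80% or more unique windows there were 11 members, of which Mir669c, Mir669e and Mir466h had counts. The other 8, namely Mir466g, Mir466l and Mir669b inside Sfmbt2 and Mir466f-4, Mir466j, Mir466k, Mir467f and Mir669n elsewhere, had 0 in both libraries. Genes that are not members had a count in 760 of the 1856 cases with a unique window. Among those with a Mir symbol it was 711 of 1076.

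**Figure D3:**
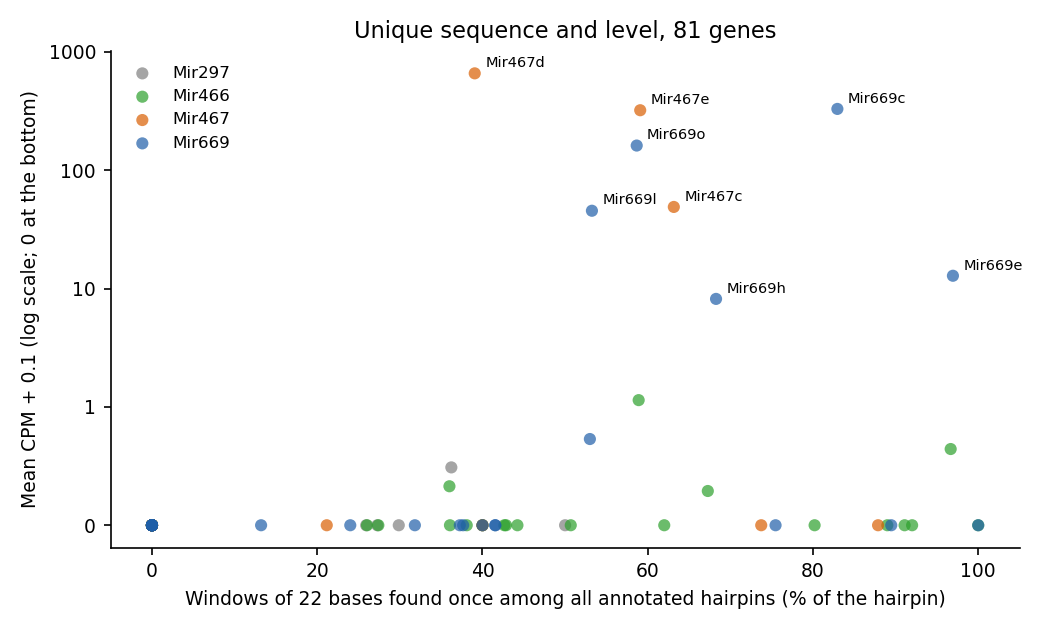
Mean CPM plus 0.1 (log axis, genes at 0 on the bottom line) against the share of 22-base windows found once among all annotated hairpins, 1 point per member, coloured by family. The 32 members at 0% on the horizontal axis overlap in 1 point with no counts, while members with counts run from 36% to 96.9%.

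The neighbours in the intron and another imprinted cluster give 2 points of reference. Inside Sfmbt2 lie 48 further microRNA genes without a member symbol. Of these, Gm25263 and Gm22239 had 2 counts each in replicate 1, and the rest had 0 in both libraries. A unique window was missing in 22 of the 48. The Mir379 to Mir410 cluster on chromosome 12 is transcribed from the maternal chromosome. Of its 35 listed genes, 33 had at least 10 counts in each library, and they summed to 66674 ± 217 CPM, led by Mir487b (13968 ± 1882) and Mir411 (10668 ± 160). Its hairpins had a median of 100% unique windows, and 5 of 35 shared a 20-base stretch.

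The 2 libraries were compared gene by gene after TMM scaling by a two-sided exact conditional binomial test, Benjamini-Hochberg adjusted over all 504 genes with at least 10 counts in the sum of both. It covers counting error and compares these libraries, not a condition. Of the tested genes 55.8% passed an adjusted p of 0.05, 32.5% higher and 23.2% lower in replicate 2. Tested were 9 of the 81 members, of which 6 passed: 5 lower and 1 higher in replicate 2, with a median log2 ratio of -0.996, against 0.05 over all tested genes. That median joins genes of both directions and depends on the minimum: over the 14 members with any count it was -0.40, against 0.07 over all 778 genes with any count. A share of 6 in 9 is near that of all genes. Fewer cells of a type and less RNA per cell cannot be told apart in such tissue libraries.

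The direction went with the family name. All 5 tested Mir669 genes were lower in replicate 2, between Mir669e at a log2 ratio of -1.71 (adjusted p = 2.2e-10) and Mir669o at -0.996 (adjusted p = 5.0e-40), by the exact conditional binomial test. Mir669c stood at -1.03, Mir669l at -1.26 and Mir669h at -1.27. The log2 ratios in the text have 1 CPM added in each library. Without it, the ratio of scaled counts was 0.272 (95% exact interval 0.172 to 0.417) for Mir669e and 0.365 (0.213 to 0.606) for Mir669h. It was 0.408 (0.331 to 0.501) for Mir669l, 0.490 (0.455 to 0.528) for Mir669c and 0.499 (0.449 to 0.554) for Mir669o. No interval of a Mir669 gene reached 1. With the coefficient of variation of 0.426 that edgeR estimated between the libraries in the test, none of the 5 passed, with adjusted p = 0.93 for Mir669e and 1 for the other 4 in that beta-binomial form of the exact test.

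None of the 3 tested Mir467 genes passed as lower. Mir467c was higher in replicate 2 (log2 ratio 0.56, ratio 1.49, interval 1.23 to 1.80, adjusted p = 6.0e-05 in the exact conditional binomial test). It did not pass with a coefficient of variation of 0.1 (adjusted p = 0.071 in the beta-binomial form of the exact test) or with the estimated one (adjusted p = 1). Mir467d at 1.06 (1.00 to 1.11, adjusted p = 0.058, same exact test) and Mir467e at 0.983 (0.915 to 1.06, adjusted p = 0.74, same exact test) did not pass. With total-count scaling and with either-strand counts, Mir467d passed as higher, with adjusted p = 0.018 and 0.00061 in that exact test. The counts of Mir467d itself were the same under both settings. Mir466n, with 5 counts in each library, had a ratio of 0.824 (0.190 to 3.58), which allows a change in either direction. No interval of a Mir467 gene overlaps that of a Mir669 gene. The split by family was made after these values were seen.

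**Figure D4:**
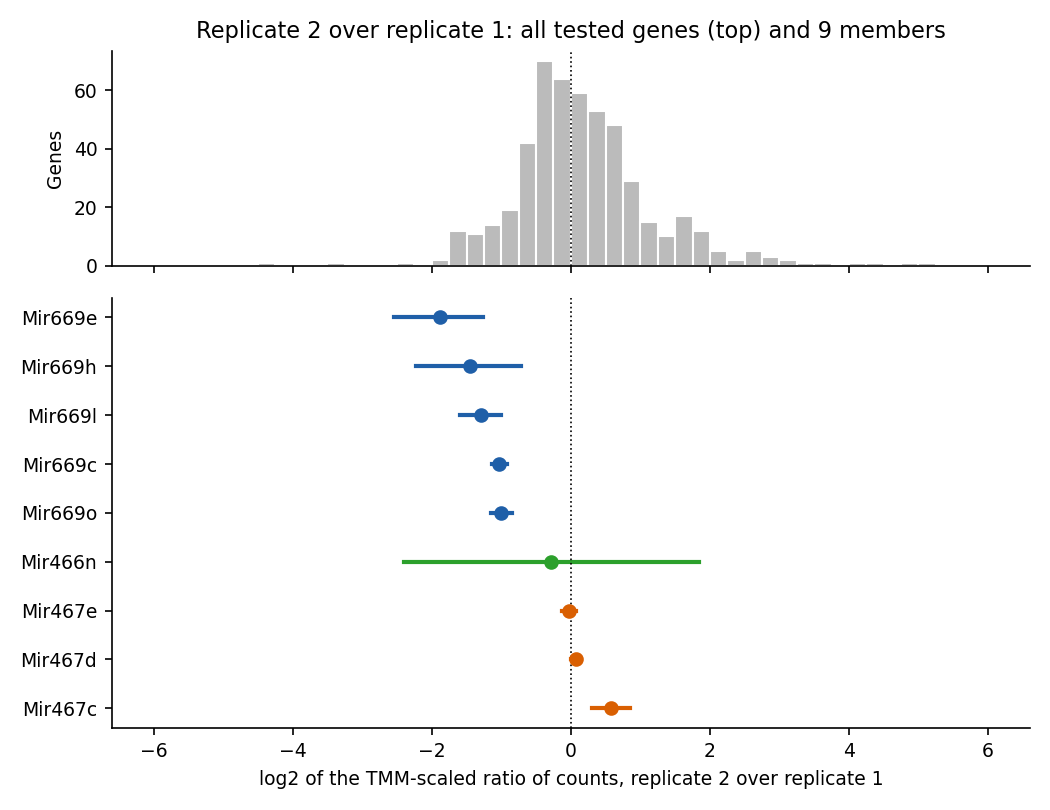
Top, the number of tested genes by log2 ratio of TMM-scaled counts, replicate 2 over replicate 1, without the 1 gene at 0 in a library; bottom, the same ratio for the 9 tested members with 95% exact counting intervals, coloured by family. The 5 Mir669 genes lie at 0.499 times or below, and the Mir467 genes lie between 0.983 and 1.49 times.

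The contrast between the families can also be read inside each library, where no scaling enters. These ratios come from the same counts and are no separate evidence for it. The Mir467 genes had 1.33 times the counts of the Mir669 genes in replicate 1 (95% exact interval 1.27 to 1.39) and 2.91 times in replicate 2 (2.77 to 3.07). Within a family, the intervals of the 2 libraries overlapped for some pairs and not for others. Mir669c had 2.05 (1.90 to 2.22) and 2.02 (1.82 to 2.23) times the counts of Mir669o in replicates 1 and 2, and Mir467d had 1.98 (1.85 to 2.11) and 2.12 (2.00 to 2.25) times those of Mir467e. Mir669c had 22.1 (17.8 to 27.6) times the counts of Mir669e in replicate 1 and 39.8 (27.6 to 59.7) in replicate 2, intervals that barely meet. Mir467e had 8.26 (7.04 to 9.73) and 5.46 (4.84 to 6.18) times those of Mir467c, intervals that lie apart. Genes of both families lie next to each other in the same intron. Mir467d and Mir669c are neighbours among the counted genes there, and their ratio was 1.45 (1.36 to 1.53) in replicate 1 and 3.11 (2.91 to 3.33) in replicate 2.

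The hairpins of the 3 counted Mir467 genes resemble each other more than those of the Mir669 genes. The longest stretch that a pair has in common was 34 to 48 bases over the 3 Mir467 pairs and 11 to 27 over the 10 Mir669 pairs. Between a Mir467 and a Mir669 gene it was 10 to 22 bases over 15 pairs. The medians were 34, 15 and 12 bases, so the Mir669 pairs shared little more than pairs across the families. Members that share sequence cannot be taken as independent of each other, and dependence between their counts was not tested.

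Other measures moved between the same libraries. Spread between them beyond counting was large: edgeR's common dispersion gave the coefficient of variation of 0.426. With it in the test, an alternative added after seeing the data, 0 of the 9 members passed and 3 of 504 genes did, while 5 members passed with a coefficient of 0.1. At an unadjusted p below 0.05, 1 member, Mir669e, and 27 genes passed with that value. Mir126a, the endothelial marker, went from 9729 to 37937 CPM, and the red blood cell list of 3 genes from 66.8 to 113 CPM. In that list Mir144 (38 and 201 counts) and Mir451a (155 and 304) rose, while Mir486 (101 and 94) did not. The share of reads that match several places went from 40.3% to 46.5%. Their part in the Mir669 difference was not tested.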

How the data were processed

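MicroRNA-seq counts of 2 libraries were used. The authors deposited raw counts per microRNA gene, for reads mapped to mm10 with GENCODE M21, per the file headers of the notes beside the counts. Which aligner was used is not given in the sources used here. No header names the 3 count columns. Their roles (either, own and opposite strand) were read from the values, and own-strand counts were used. Lines that name no gene held 64.7% and 65.4% of the reads and were left out. All 2202 identifiers matched GENCODE M21.

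CPM is the count over the library's own-strand total, times 1000000. Log2 ratios set replicate 2 over replicate 1, with TMM scaling (edgeR 4.0.16, R 4.3.3), with 1 CPM added. Tests used scipy 1.17.1 over genes whose counts in both libraries sum to 10 or more, in place of edgeR's quasi-likelihood test, which needs 2 groups. DESeq2 1.42.0 gave alternative size factors. The library test was tested on simulated data. Hairpin sequences came from GENCODE M21 and mature sequences from RefSeq on GRCm38.p6, where a missing entry is only named.

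Members and lists were chosen with earlier results of these data known. Named are the members with a count, the 2 highest genes of a list where it is described, and genes said to be counted or located. Windows of 22 bases, the order along the intron and the split by family were added after seeing the data.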

Additional observations from a re-analysis of the deposited data

How the results depend on the processing

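The 8 members with at least 10 counts in each library, the summed level and the 79 members with shared sequence kept within 1.5 times or 1 SD of their values under every alternative run for them. The summed level was 1728 CPM with either-strand counts, 1425 without replicate 1 and 1754 without replicate 2. With 2 libraries, the value of either one always lies within 1 SD of their mean. Leaving out a library is therefore no check of this level. The either-strand count equals the own-strand count for all 81 members. Either-strand counting thus acts through the other genes alone and is no check of member counts. The number of genes that differed between the libraries, 281, was 149 with a coefficient of variation of 0.1 and 3 with the estimated one. The number of members, 6, was 5 and 0 under these settings. Mir467c did not pass at 0.1 (adjusted p = 0.071). The log2 ratio of Mir467e, -0.03 and not past the threshold, was 0.030 with either-strand counts. The median log2 ratio of all tested genes was 0.05 with TMM, 0.07 with total counts and 0.00 with DESeq2 size factors, and the 5 tested Mir669 genes were lower in replicate 2 under each of these scalings. The 32 members without a unique window were 32 with 18 bases, 31 with 26 bases and 32 on the own strand alone, and 0 of them had a count in each setting. No paired analysis was possible because there is only 1 group. Depth limits the 6 members with 1 to 5 counts in a library, and the 67 members at 0 cannot be called absent.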
